A study of Drosophila melanogaster with 8 samples.

Results

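Tetraspanins are small membrane proteins that cross the plasma membrane several times and carry a large extracellular loop held by disulphide bridges. They gather receptors, integrins and proteases into shared membrane domains and take part in their trafficking. In Drosophila, members of the family act in Notch signalling, in the junctions of the gut epithelium and at developing motor synapses, and many of them lie side by side in a gene cluster on the right arm of chromosome 2. The members here were the genes of the authors' differential expression table whose symbol begins with Tsp and a digit, together with lbm (late bloomer), which lies in that cluster. The rule found 31 of the 11397 genes in that table, and all 31 were present among the 14094 genes of the table of transcript abundances. Beyond the symbol, members were chosen by a single measured value, the mean normalised count that put a gene in the authors' table (its lowest was 1.11), and not by any fold change or p-value.

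RNA was measured in dissected ovaries that genetic tools had enriched for GSC-like cells, which resemble the stem cells of the germline, from females 4 to 5 days old, with about 35 ovaries in each sample. The genotype Control (without Stwl overexpression) and the genotype Stwl overexpression, whose samples are titled StwlEY, had 4 replicates each. Stonewall (Stwl) binds DNA and is needed to maintain germline stem cells in the ovary. The labels name neither the alleles behind the enrichment nor the driver of Stwl, and the strain of each group is not stated, so Stwl and strain cannot be told apart. Whether replicates are independent crosses is not stated, and p-values therefore cover only the spread between these samples, which may be technical. Abundances are in TPM, a share of all transcripts that is scaled by gene length, and they keep no record of sequencing depth.

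The overexpressed gene followed the labels, with 21.9 to 25.1 TPM of stwl in controls and 45.5 to 67.8 TPM with overexpression. The germline markers vas, nos, aub, ovo and otu were detected in every library, with a summed level of 759.9 to 822 TPM in controls and 547 to 803 TPM with overexpression. Follicle and escort cell markers were present as well, so the tissue also held somatic cells. Summed levels of muscle sheath markers were 2092 to 2845 TPM in controls and 3478 to 4282 TPM with overexpression. Those of hemocyte markers were 80.2 to 127 and 157 to 231 TPM, and those of chorion genes 112 to 802 and 1518 to 7031 TPM. None of these sums overlapped between the groups, and 10.3% of all genes tested also had every overexpression library above every control. Limma, described below, called genes higher at an adjusted p below 0.05. It called 8 of 10, 6 of 7 and 8 of 9, against 6.2% of all genes tested. Log2 fold changes were above 0 for 10 of 10, 7 of 7 and 9 of 9, against 54% of all genes tested. For germline markers 0 of 5 were above 0 (median -0.24), and for follicle and escort cell markers 4 of 6 tested (median 0.22). Limma called 0 genes of these last lists in either direction. These are whole-tissue samples, in which fewer cells of a type and less RNA per cell cannot be told apart.

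Tetraspanin RNA was dominated by a single gene. Tsp42Ee had a mean of 796 TPM over the 8 libraries and made up 50.5% to 59.2% of the summed TPM of all 31 members. Tsp74F followed at 114.6 TPM, and a further 14 members lay between 10 and 100 TPM, 8 between 1 and 10 TPM and 7 below 1 TPM. The 4 next most abundant members were Tsp42Ea, Tsp42Ed, Tsp42Ef and Tsp42Eg, with means of 91.2, 71.4, 58.5 and 51.7 TPM, so that 5 of the 6 highest belonged to the cluster at cytological position 42E. The median member had 11.6 TPM.

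**Figure D1:**
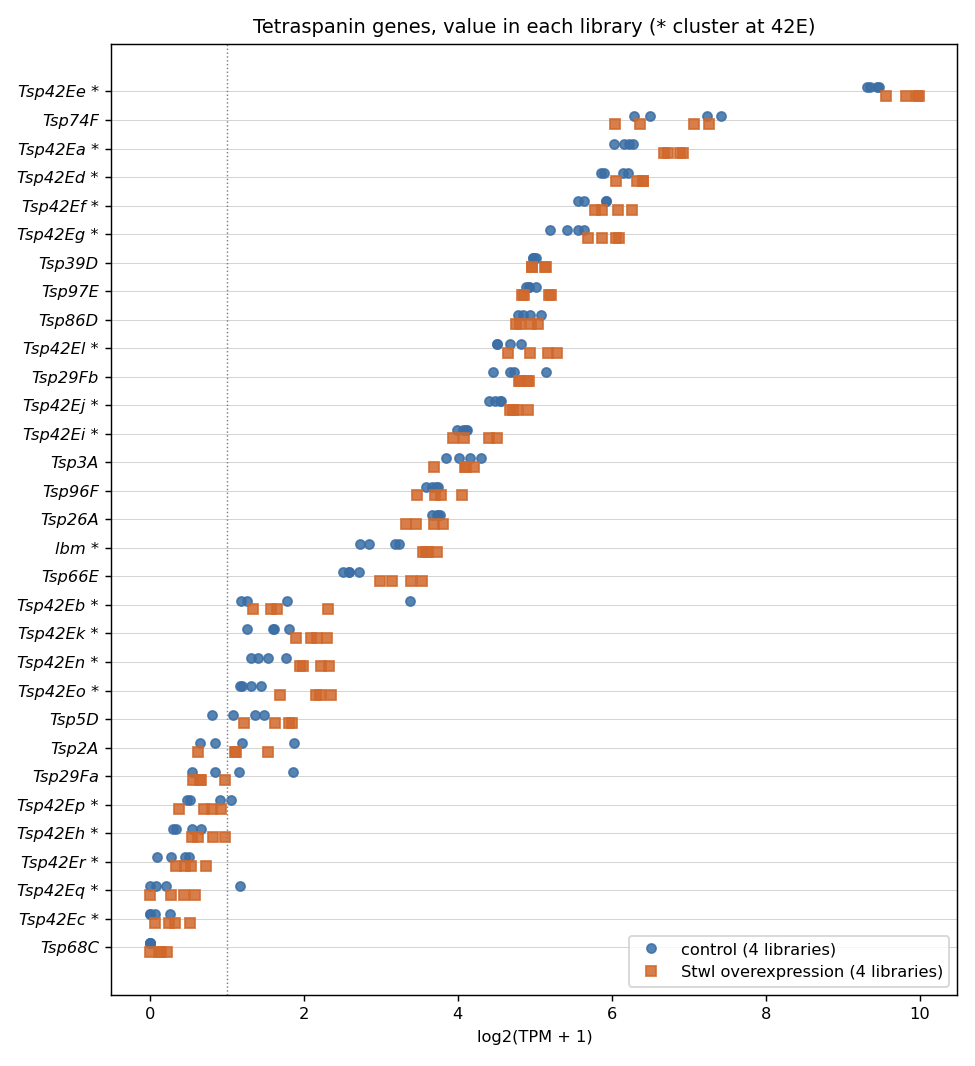
Abundance of the 31 tetraspanin genes in each library as log2(TPM + 1), ordered by mean TPM, with 4 control libraries as circles and 4 overexpression libraries as squares. The dotted line marks 1 TPM and asterisks mark the cluster at 42E. Tsp42Ee stands highest, and the squares lie to the right of the circles without overlap for 9 of the 24 genes tested.

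A further 4 tetraspanin symbols, Tsp33B, Tsp42A, Tsp47F and Tsp66A, were absent from the authors' table and fell outside the rule. Tsp47F was the highest of them with a mean of 0.0405 TPM, and Tsp66A was listed at 0 in all 8 libraries. Just inside the rule stood Tsp68C, which the file lists at 0 for every control and for overexpression 1, with 0.0888, 0.104 and 0.163 TPM in overexpression 2 to 4. Tsp42Ec was next, with means of 0.0632 TPM in controls and 0.233 TPM with overexpression. The gene TM4SF encodes a tetraspanin named outside the rule and was at 13.7 to 19.3 TPM in controls and 14.4 to 18.9 TPM with overexpression.

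The groups were compared with limma on log2(TPM + 1), over the 8898 genes whose mean across the 8 libraries reached 1 TPM. Fold changes are on that scale, which understates the change of low genes, and a gene passed at an adjusted p below 0.05. Of the 31 members, 24 were tested, and for none of them did only 1 group exceed 1 TPM. With Stwl overexpression 7 of the 24 rose and 0 fell, while over all genes tested 6.2% rose and 2.18% fell (552 and 194 genes). With median-of-ratios scaling, 806 genes rose and 626 fell, and among the members 9 rose and 0 fell. At an unadjusted p below 0.05 in limma, 11 members were higher and 0 lower, against 14% and 7.32% of all genes tested. The 7 were Tsp42Ea, Tsp42Ee, Tsp42Eg, Tsp42En, Tsp42Eo and lbm in the cluster, and Tsp66E outside it. Every overexpression library lay above every control for 9 members, against 10.3% of all genes tested, and every one lay below for 0 members, against 5.64%. Of 30 members with an adjusted p in the authors' deposited table, 11 were higher and 0 lower, against 10.5% and 8.4% of its genes, and these 11 included all 7. Members and background are set side by side as counts only, since the family was chosen with results of these data known.

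The count depended on single libraries. It was 4 without control 1, without control 4 or without overexpression 2, and 2 without overexpression 3, where Tsp42Ea and Tsp66E passed. The share of all genes that rose was 4.28%, 3.98%, 3.82% and 3.78% in those 4 fits. Without control 3, which was the highest library for several members below, 5 members rose, against 4.53% of all genes.

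**Figure D2:**
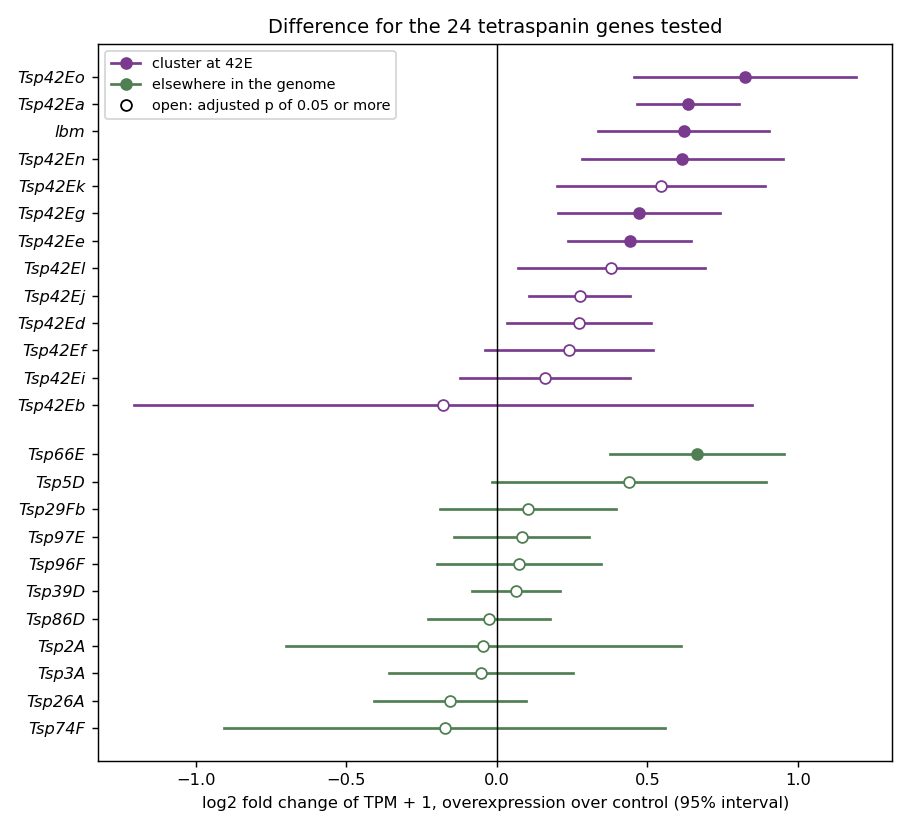
Log2 fold change of TPM + 1 for the 24 tetraspanin genes tested, overexpression over control, with 95% confidence intervals from limma. Filled circles have an adjusted p below 0.05, and the cluster at 42E is drawn above the members elsewhere. Among the cluster genes, 12 of 13 lie above 0, and among the others 6 of 11.

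The cluster held 18 members in 73.4 kb of chromosome 2R, from 6992676 to 7066113 in the BDGP6 annotation, 15 on the plus strand and 3 on the minus strand. Reads of such related genes can be assigned to the wrong copy, so levels of single members are less certain than their sum. Their predicted proteins had 208 to 250 residues, against 221 to 362 for the 13 members elsewhere. Of the 13 cluster members tested, 6 rose, 12 had a log2 fold change above 0 and the median was 0.44. Of the 11 tested elsewhere, 1 rose, 6 were above 0 and the median was 0.06, while over all genes tested the median was 0.01 and 54% were above 0. The summed abundance of the cluster was 985 ± 63.7 TPM (SD, n = 4) in controls, and 1334 ± 165 TPM (SD, n = 4) under overexpression. That of the members elsewhere was 287 ± 35.5 and 280 ± 26.6 TPM. Leaving out any 1 library kept the cluster median between 0.39 and 0.53, and with median-of-ratios scaling it was 0.41.

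Tsp42Ea, the gene at the left end of the cluster (6992676 to 7004259, plus strand), had 64.5, 73.7, 76.2 and 70.3 TPM in controls 1 to 4. In overexpression replicates 1 to 4 it had 101.6, 105, 118 and 120.4 TPM. All 4 overexpression values exceeded the highest control, and the log2 fold change was 0.64 (standard error 0.0755, 1.55-fold, adjusted p 0.00148 in limma). It passed in every alternative tried. The short gene CG30159 shares the start of Tsp42Ea on the same strand, so reads there cannot be fully told apart, and CG30159 was at 51.6 ± 1.78 and 53.8 ± 3.89 TPM (SD, n = 4 each; log2 fold change 0.06).

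The most abundant member, Tsp42Ee (7012254 to 7018362, plus strand), was at 655, 634, 710.3 and 694 TPM in controls 1 to 4. With overexpression it was at 756, 905, 998 and 1017 TPM in replicates 1 to 4. The groups did not overlap, although overexpression 1 lay much closer to the controls than the other 3 libraries did. The log2 fold change was 0.44 (standard error 0.0902, adjusted p 0.0167 in limma), and Tsp42Ee missed the threshold without control 1, control 2 or overexpression 3 and with no filter on low values, where the adjusted p was 0.0526, 0.0512, 0.0529 and 0.057. Its neighbour Tsp42Ed (7009498 to 7011739, minus strand) had 57.1, 58.6, 72.9 and 69.6 TPM in controls and 65.7, 79.0, 84.1 and 83.9 TPM with overexpression. Here the lowest overexpression library lay inside the control range, and the gene did not pass (log2 fold change 0.27, adjusted p 0.169 in limma, 0.0258 in the authors' deposited table).

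Tsp42Ef and Tsp42Eg lie next to each other on the plus strand (7025010 to 7028082 and 7028911 to 7033233). Tsp42Eg had 35.5, 41.95, 48.9 and 46.4 TPM in controls and 50.5, 57.7, 67.5 and 65.6 TPM with overexpression. The groups did not overlap, but by a narrow margin, and the log2 fold change was 0.47 (standard error 0.119, adjusted p 0.0409 in limma). This call was lost in 7 of 14 alternatives, with adjusted p-values up to 0.114. Tsp42Ef had 48.7, 46.2, 59.6 and 59.6 TPM in controls and 53.8, 57.9, 75.9 and 66.6 TPM with overexpression. Its groups overlapped and it did not pass in limma or in the authors' deposited table (log2 fold change 0.24, adjusted p 0.32 in limma).

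In the right part of the cluster, lbm (7049238 to 7051964, plus strand) encodes Late bloomer, a tetraspanin of motor axons that promotes synapse formation. It had 5.65, 8.43, 6.21 and 8.05 TPM in controls and 10.7, 11.0, 12.3 and 11.2 TPM with overexpression. All overexpression libraries were above the controls, and the log2 fold change was 0.62 (standard error 0.126, adjusted p 0.016 in limma). Without control 3 or overexpression 3 the adjusted p of lbm was 0.0513 and 0.0551. Neuronal markers were low in these ovaries, with a summed level of elav, nSyb, Syt1 and brp of 4.501 to 7.74 TPM in controls and 3.79 to 6.21 TPM with overexpression.

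Next to lbm, Tsp42En (7052747 to 7054399, plus strand) was at 1.90, 2.39, 1.65 and 1.49 TPM in controls and 2.96, 4.01, 3.66 and 2.87 TPM with overexpression. Its groups were separate, with a log2 fold change of 0.62 and a standard error of 0.148 (adjusted p 0.0341 in limma). Tsp42Eo (7054717 to 7056576, plus strand) had the largest fold change of the 24 members tested. It was at 1.28, 1.49, 1.71 and 1.25 TPM in controls and 2.24, 3.46, 3.62 and 4.10 TPM with overexpression, a log2 fold change of 0.82 with a standard error of 0.164 (1.77-fold, adjusted p 0.0145 in limma). Tsp42En lost its call when control 1, 3 or 4 or overexpression 2 or 3 was left out (adjusted p up to 0.111), and Tsp42Eo without control 4, overexpression 2 or overexpression 3 (adjusted p up to 0.053). The exons of Tsp42Eo overlap those of Tsp42Ep on the opposite strand, and the labels do not say whether reads were assigned by strand, so the level of each is uncertain. Tsp42Ep had means of 0.696 TPM in controls and 0.645 TPM with overexpression.

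Another 3 cluster members passed in the authors' deposited table but not in limma. Tsp42Ej (7040136 to 7042762, plus strand), also known as sunglasses, is needed to degrade rhodopsin in the lysosomes of photoreceptors. It was at 20.1, 22.6, 22.4 and 21.3 TPM in controls and at 25.4, 24.6, 29.1 and 26.4 TPM with overexpression. The groups did not overlap, and the adjusted p was 0.0534 in limma (log2 fold change 0.27) and 0.0406 in the authors' deposited table. Tsp42Ek (7042656 to 7044710, plus strand) shares exon sequence with the end of Tsp42Ej, so their reads cannot be fully told apart. It had 2.04, 2.50, 1.40 and 2.06 TPM in controls and 3.25, 3.95, 2.72 and 3.52 TPM with overexpression, again without overlap (log2 fold change 0.54, adjusted p 0.0625 in limma and 0.048 in the authors' deposited table). Tsp42El (7045769 to 7048538, plus strand) overlapped between the groups, with 21.8, 21.8, 27.3 and 24.6 TPM in controls and 24.2, 29.7, 35.0 and 37.9 TPM with overexpression. Its log2 fold change was 0.38 with adjusted p-values of 0.14 in limma and 0.00533 in the authors' deposited table.

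The remaining cluster members tested were Tsp42Ei, with means of 15.8 TPM in controls and 18.0 TPM with overexpression (log2 fold change 0.16), and Tsp42Eb, which lies inside Tsp42Ea and had a log2 fold change of -0.18. Neither passed. Tsp42Ec, Tsp42Eh, Tsp42Ep, Tsp42Eq and Tsp42Er stayed below a mean of 1 TPM and were not tested.

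**Figure D3:**
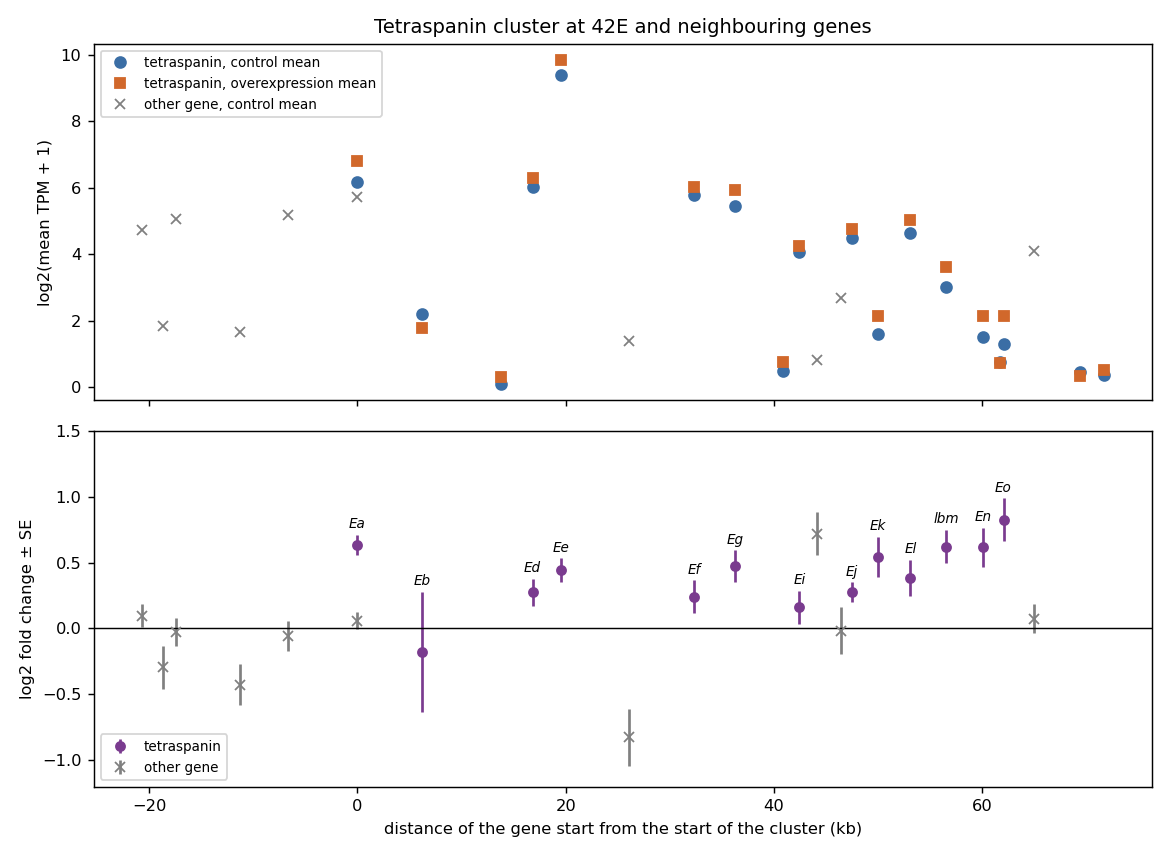
The tetraspanin cluster at 42E with gene starts as distance in kb from the start of Tsp42Ea. The upper panel gives log2(mean TPM + 1) by group and the lower panel the log2 fold change with its standard error (E names stand for Tsp42E genes), with other genes as crosses. Tested tetraspanin genes from Tsp42Ed to Tsp42Eo lie above 0, and the 5 tested genes to the left lie between -0.43 and 0.10. Among the crosses inside the cluster, CG33914 is at 0.72, CG43646 at -0.83 and the others between -0.02 and 0.07. The 5 nearest tested genes to the right, with Cyp9b2 at -2.90, are not drawn.

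The genes interspersed with the tetraspanins and the nearest tested genes on each side were measured for comparison. Those on the right were not adjacent and started 137.6 to 161 kb from the start of the 73.4 kb cluster. Of 5 tested genes inside the cluster that are not tetraspanins, CG33914 averaged 0.763 ± 0.17 TPM in the control libraries, against 1.92 ± 0.447 TPM under overexpression (SD, 4 libraries a group), and CG43646 had 1.59 ± 0.286 and 0.499 ± 0.394 TPM. Both reached the filter of 1 TPM only through the group in which they were high, so they had to differ and their log2 fold changes of 0.72 and -0.83 are given with no test. CG33914 shares exon sequence with Tsp42Ei on the opposite strand. CG30159, CR12842 and Pgant3, which encodes an enzyme that adds the first sugar of O-linked glycans, had log2 fold changes of 0.06, -0.02 and 0.07 and did not pass. None of the 5 nearest tested genes to the left (Cyp6u1, Ufsp1, vimar, CG30156 and CG17002) passed at an adjusted p of 0.05 in limma, and their median log2 fold change was -0.06. The nearest tested gene to the right was the cytochrome P450 gene Cyp9b2 (7130277 to 7132139), which fell from 24.7 ± 4.95 to 2.66 ± 1.44 TPM (SD over 4 libraries a group), for which limma gave a log2 fold change of -2.90 (adjusted p 0.000963). The next 4 to the right did not pass, with log2 fold changes between -0.58 and 0.28.

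Outside the cluster, Tsp66E (chromosome 3L, 8912499 to 8932065, plus strand) was the only member of the 11 tested in limma that passed. It was at 5.01, 5.56, 5.03 and 4.72 TPM in controls and at 9.51, 6.98, 7.87 and 10.6 TPM with overexpression. The groups were well separated, with a log2 fold change of 0.67 and a standard error of 0.128 (1.59-fold, adjusted p 0.0127 in limma), and the call held in all 14 alternatives. The gene mfr, whose exons overlap Tsp66E on the opposite strand, was near 0 in both groups (0.0252 and 0.0281 TPM).

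Tsp3A, Tsp26A and Tsp86D belong to the TspanC8 group, which carries the protease Kuzbanian (ADAM10 in mammals) to the cell surface, where it cuts Notch. None of the 3 passed in limma at an adjusted p of 0.05, in any alternative, or in the authors' deposited table. Tsp86D (chromosome 3R) had 29.8, 26.5, 27.8 and 32.9 TPM in controls and 26.9, 26.1, 29.8 and 31.8 TPM with overexpression, and the 95% interval of its log2 fold change ran from -0.23 to 0.18. Tsp3A (chromosome X) had 15.1, 13.4, 16.9 and 18.8 TPM against 12.0, 16.2, 16.1 and 17.5 TPM, with an interval from -0.36 to 0.25. For both genes the groups overlapped. Tsp26A (chromosome 2L) had 12.3, 11.7, 12.4 and 12.6 TPM in controls and 9.04, 9.96, 13.0 and 11.9 TPM with overexpression, where replicates 1 and 2 were below all controls and replicate 3 above them, and its interval ran from -0.41 to 0.10.

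Partners of these proteins in Notch signalling were 15 genes, 14 of them tested. None passed in limma at an adjusted p of 0.05, and 2 were lower and 0 higher at an unadjusted p below 0.05, against 7.32% and 14% of all genes tested. The list's median log2 fold change was -0.03. Its most abundant genes, Psn, the catalytic subunit of gamma-secretase, and aph-1, another subunit, had values of 0.06 and 0.06. In the authors' deposited table Kul, a relative of the Kuzbanian gene, and neur, a ubiquitin ligase gene that activates Notch ligands, were lower, with log2 fold changes of -0.46 and -0.36 and adjusted p-values of 0.0048 and 8.5e-06. The list of integrin, septate junction and vesicle genes held 20 genes, among them TM4SF, the tetraspanin named outside the rule. None passed in limma at an adjusted p of 0.05, and the median log2 fold change was 0.02. At an unadjusted p below 0.05 in limma, 1 was higher and 0 lower, against 14% and 7.32% of all genes tested. The integrin gene if passed in the authors' deposited table with a log2 fold change of 0.39. The most abundant genes of this list were Rab7 and Rab11, endosomal GTPases, with log2 fold changes of 0.20 and 0.05 in limma.

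Tsp74F (chromosome 3L, 17891820 to 17895862, minus strand), the second most abundant member, did not follow the groups. It had 149.6, 170.0, 88.9 and 76.9 TPM in controls 1 to 4 and 152, 133, 81.4 and 64.8 TPM in overexpression replicates 1 to 4. In both groups replicates 1 and 2 were higher than replicates 3 and 4, and the groups overlapped widely (log2 fold change -0.17, 95% interval -0.91 to 0.56). The other members elsewhere, Tsp39D, Tsp97E, Tsp96F and Tsp29Fb, had log2 fold changes between 0.06 and 0.10, Tsp2A had -0.04, and Tsp5D had 0.44 with an adjusted p of 0.255 in limma.

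**Figure D4:**
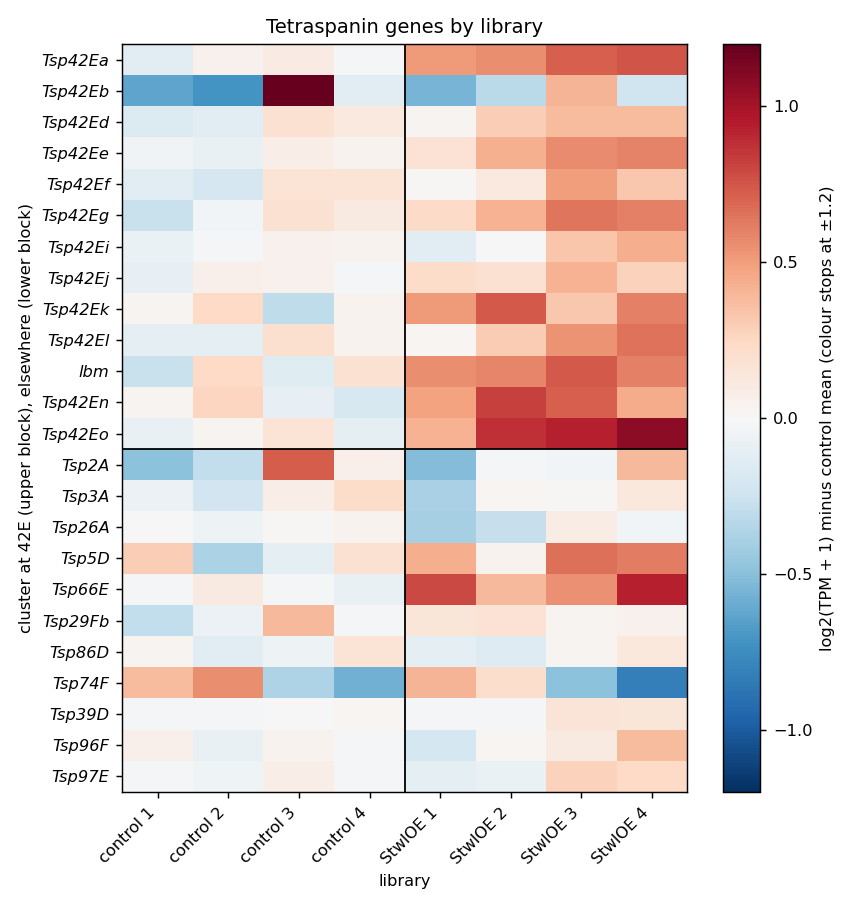
Log2(TPM + 1) minus the control mean for the 24 tetraspanin genes tested in the 8 libraries, with the cluster at 42E above the horizontal line and members elsewhere below it. Overexpression 3 and 4 are the darkest for most cluster genes, Tsp42Eb is high in control 3, and Tsp74F splits replicates 1 and 2 from 3 and 4 in both groups.

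Libraries of the overexpression group differed in how far the cluster stood above the controls. The median difference from the control mean over the 13 tested cluster members was 0.22, 0.42, 0.54 and 0.60 in overexpression replicates 1 to 4, on the log2(TPM + 1) scale. Over all genes tested the same median was -0.12, -0.02, 0.08 and 0.13. Controls differed as well, with cluster medians of -0.117, -0.0115, 0.0989 and 0.0397 in controls 1 to 4, where control 3 was the highest. Their summed cluster abundance was 931, 931, 1058 and 1018 TPM. Replicates 3 and 4 thus stood above replicates 1 and 2 in both groups. The split was not particular to the cluster. Over all genes tested the medians of controls 1 to 4 were 0.0026, -0.062, 0.028 and 0.021. For the tested members elsewhere they were -0.013, -0.074, 0.015 and 0.028. In overexpression 1 to 4 the members elsewhere had medians of -0.10, 0.02, 0.08 and 0.14. The cause of this split was not tested. Overexpression 1 was the lowest of its group for 10 of the 13 cluster members, and overexpression 3 or 4 the highest for 11. The markers of muscle, hemocytes and late follicle cells that also stood higher with overexpression were measured in the same libraries, and their part in the cluster members' values was not tested.

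Control 3 was the highest of the 8 libraries for several of the less abundant members. Only Tsp42Eb and Tsp42Eq were flagged as far from the other controls. They were 2 of 61 sets looked at, and chance flags about 1 in 20. Tsp42Eb had 1.40, 1.26, 9.37 and 2.42 TPM in controls 1 to 4 and 1.53 to 3.96 TPM with overexpression. Tsp2A, a core protein of the smooth septate junctions of the gut and Malpighian tubules, was at 2.67 TPM in control 3, and at 0.574 to 1.30 TPM in the other controls. Tsp29Fa reached 2.64 TPM and Tsp42Eq 1.24 TPM there, each the highest of the 8 libraries. In the same library hoka, another septate junction gene, was at 3.22 TPM against 0.412 to 1.25 TPM in the other controls, and Uro, the urate oxidase gene of the Malpighian tubule, at 13.4 TPM against 0.202 to 3.10 TPM. With overexpression, hoka was at 0.726 to 1.73 TPM and Uro at 0.464 to 5.85 TPM. The summed level of the 6 gut and tubule markers was 57.8 TPM in control 3, 24.6 to 37.2 TPM in the other controls and 30.9 to 37.8 TPM with overexpression. The sum was carried by Ssk (31.7 TPM in control 3) and Uro. The markers mesh, nub and Jon25Bi were at 7.01, 0.229 and 2.22 TPM in control 3 and higher in control 4, at 7.95, 0.363 and 2.58 TPM. hoka and Uro were named after their values were seen. The part of these cells in the tetraspanin values of control 3 was not tested. Without control 3 all 13 cluster members tested had a log2 fold change above 0. Tsp42Eb was the 1 member below 0 with control 3 included. Its high value also marked that library out, so the count of 13 is no separate result.

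**Figure D5:**
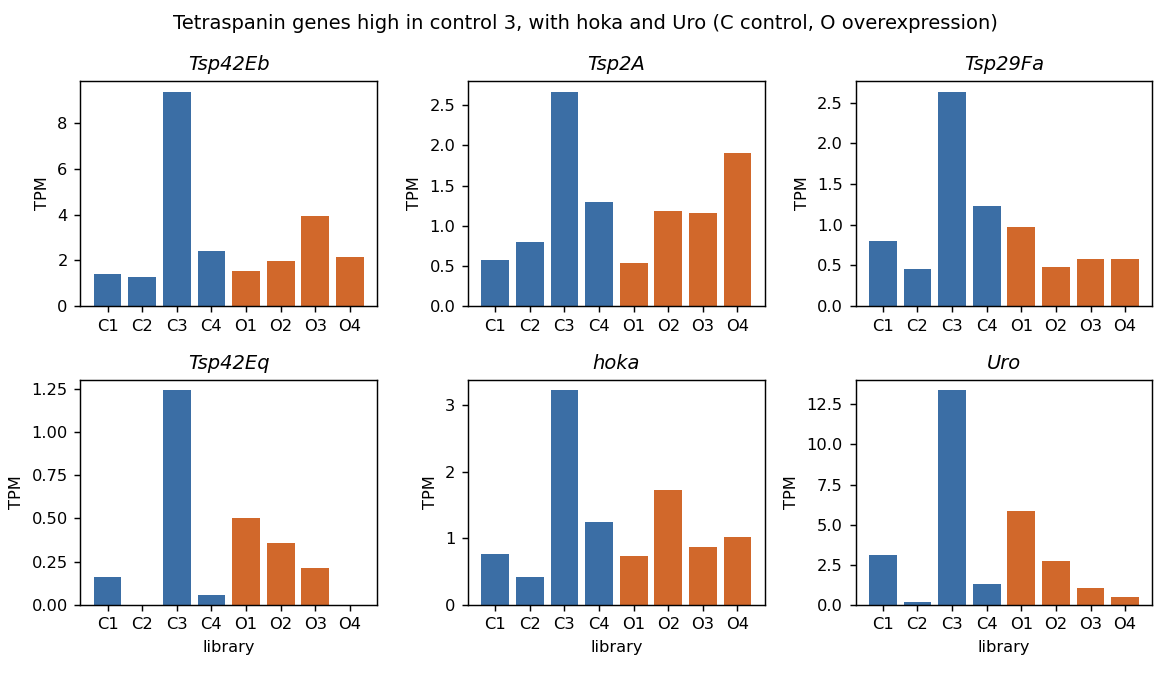
TPM of Tsp42Eb, Tsp2A, Tsp29Fa and Tsp42Eq and of the septate junction gene hoka and the tubule gene Uro in the 4 control (C) and 4 overexpression (O) libraries. For each of these genes the bar of control 3 is the tallest, as with 9.37 TPM for Tsp42Eb.

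The authors' deposited table also carries marks that the rule did not use. A Stwl peak within 1 kb of the gene body was marked for 22 of the 31 members (71%) and for 73.7% of all 11397 genes. The shares were 13 of 18 in the cluster and 9 of 13 elsewhere. Of the 7 members that rose in limma, 6 had the mark, and lbm did not. The table further names 2 other studies in which a gene was upregulated, under conditions the file does not give. Such a mark was set for 15 of 31 members (48.4%) and for 21.2% of all genes in the table. In the cluster 12 of 18 members (66.7%) had it and elsewhere 3 of 13 (23.1%). Tsp42Ed, Tsp42Ee, Tsp42Eg, Tsp42Ej, Tsp42El and Tsp5D were marked for both studies, while Tsp42Eo and Tsp66E, which rose here, were marked for neither. The authors marked Tsp42Ea, Tsp42Eo, Tsp66E and lbm as Up, 4 of 31 members against 3.46% of their genes, and 0 members as Down against 1.35%.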

How the data were processed

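The authors deposited TPM values for 8 libraries, 4 per group. The headers name a log2 TPM, but the deposited values are linear: every column adds up to 1000000. Salmon 1.10.1, DESeq2 1.37.4 and the build BDGP6 are named in the submitters' processing notes, with no role given. The authors' deposited table gives log2 fold changes with standard errors, raw and adjusted p-values, and a score for mean normalised count, per the file headers. Depth is unknown, so no counting interval was given.

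Genes averaging 1 TPM or more were fitted as log2(TPM + 1) with limma 3.58.1 in R 4.3.3, using a variance trend and Benjamini-Hochberg adjustment over 8898 genes at 0.05. The code was tested on simulated data. Alternatives were a pseudocount of 0.1, no filter, a minimum of 5 TPM, median-of-ratios scaling, a replicate block, each library left out, and the authors' deposited test. Replicate numbers were not taken as pairs. Positions came from Ensembl release 115. Sequences were not used here. The symbol sun, put on the vesicle list, belongs to another gene and was left out, and nct was matched through a synonym.

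Members, lists and tests were chosen with earlier results of these data known. Library values are given for members that passed in either test, the 6 most abundant and Tsp3A, Tsp26A and Tsp86D, 16 in all. For the partner lists, genes are named that passed or else the 2 most abundant. Further members, neighbours and genes high in control 3 were named after their values were seen. Plots used matplotlib 3.10.9 (Python 3.11.15).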

Additional observations from a re-analysis of the deposited data

Results flagged for a closer look

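Among 61 sets of 4 libraries with any spread (31 members in 2 groups), 2 held a library far from the others, and chance flags about 1 in 20 such sets. Both were in control 3. For Tsp42Eb its gap to the next control was 0.857 of the range of the controls (9.37 TPM against 1.26 to 2.42 TPM). For Tsp42Eq the gap was 0.871 of the range (1.24 TPM against 0 to 0.16 TPM). The authors' mean normalised count was 6.16 for Tsp42Eq and 43.0 for Tsp42Eb.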

How the results depend on the processing

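The number of members that rose, 7, became 11 in the authors' deposited test, and ranged from 2 to 10 when 1 library was left out. The 10 came without overexpression 1, where 11.1% of all genes rose. It was 5 of 31 tested with no filter and 5 of 18 with a minimum of 5 TPM, against 3.65% and 5.52% of all genes. With median-of-ratios scaling it was 9 of 24 and with a pseudocount of 0.1 it was 7 of 24, against 9.06% and 6.24%. No member was lower in any of these settings. Replicate numbers are not said to mark shared crosses, and they were not taken as pairs. The same-numbered libraries' deviations correlated at 0.128, -0.0174, -0.134 and 0.144. Between unlike numbers the correlation ran from -0.246 (control 4 with overexpression 1) to 0.271 (control 4 with overexpression 3). With a replicate block 10 members rose, against 6.47% of all genes. The standard error of Tsp74F was then 0.07, against 0.325 in the main fit. Whether the groups share a batch was not tested. Notch partners called went from 0 to 1 with median-of-ratios scaling (neur, lower) and 2 in the authors' deposited test. In the integrin, septate junction and vesicle list, 0 became 1 with median-of-ratios scaling (if), 1 with the replicate block (mesh, lower), 1 in the authors' deposited test and 0 to 1 with a library left out. Over all genes, 552 higher and 194 lower became 806 and 626 with median-of-ratios scaling, 1113 and 893 in the authors' deposited test, and 988 higher without overexpression 1. Among 221 values of named members, 181 kept direction and call, 21 lost the call, 12 gained it and 7 changed sign. Those 7 were Tsp74F, Tsp86D and Tsp3A with a library left out, where the log2 fold change ranged from -0.37 to 0.0406, from -0.0772 to 0.0292 and from -0.13 to 0.057. The cause of these shifts was not tested. Of the 7 members below 1 TPM, 0 passed in limma with no filter (1 at an unadjusted p below 0.05, lowest adjusted p 0.188), and 0 of the 6 with an adjusted p in the authors' deposited table (0 unadjusted, adjusted p 0.282 to 0.909). Library depth is unknown, but the authors' mean normalised counts of these 7 ran only from 1.23 (Tsp68C) to 29.5 (Tsp42Ep). A p that misses the threshold does not show equal levels.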

Other observations

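The split of Tsp74F between replicates 1 and 2 and replicates 3 and 4 was also present in 3 of the 7 follicle and escort cell markers, tj, Yp1 and slbo, the last of these below 1 TPM in every library. The transcription factor gene tj was at 163, 149.5, 108 and 98.4 TPM in controls 1 to 4 while overexpression 1 to 4 held 139, 137, 97.0 and 102 TPM. The yolk protein gene Yp1 was at 19636, 19328, 12527 and 13220 TPM in controls and at 18549, 16814, 12889 and 13078 TPM with overexpression. Fas3 had 240.4, 219, 248 and 244 TPM in controls and 231, 281, 309.5 and 319.7 TPM with overexpression, and it lacked this split, as did zfh1, ptc and Wnt4. tj, Yp1 and slbo were chosen after their values were seen, and no test was made of the likeness.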
